A study of Drosophila melanogaster with 6 samples.

Results

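Integrins are cell surface receptors made of an alpha and a beta chain, which hold cells to the extracellular matrix outside and are tied to actin inside. In Drosophila the beta chain mys pairs with each of the alpha chains mew (alphaPS1), if (alphaPS2), scb (alphaPS3), ItgaPS4 and ItgaPS5, and a second beta chain, Itgbn, is known from blood cells and the midgut. Talin (the product of rhea), Ilk and vinculin (Vinc) join the short cytoplasmic tail of the beta chain to actin filaments. Blood cells use integrins to spread, to engulf particles and to wrap parasites. The genes described here are these 7 integrin subunits and 3 cytoplasmic linkers, 10 of the 11982 genes that a probe set of the array named alone. They were chosen by gene symbol, older synonyms included, and were read by 12 of the 18769 probe sets tested.

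RNA came from Drosophila S2 cells, an embryonic line that resembles macrophage-like blood cells (plasmatocytes), on 6 arrays in 2 groups of 3. The S2 control cells were labelled wild type. The other group was S2 cells labelled dBigH1 induced, which carry a dBigH1::FLAG transgene for the embryonic linker histone dBigH1 and had been kept in hygromycin B at 0.3 mg/ml before the experiment. Cells of both groups received copper sulphate at 1 mM for 24 h, so copper was common to both, and no array without copper was used here. Whether the transgenic line is 1 clone, and which promoter drives the transgene, is not given in the sources used here. The labels name no transgene for the S2 control, so line and dBigH1 cannot be told apart in any value below. RNA was measured in bulk, where fewer cells of a type and less RNA per cell cannot be told apart.

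The values are log2 signals, in which a difference of 1 is a doubling, given as the mean ± SD of 3 arrays. "Rose" and "fell" are used for an adjusted p under 0.05 in limma, and every change is induced minus S2 control. The linker histone gene BigH1, the check of the labels, read 4.86, 5.42 and 5.30 in S2 control and 13.47, 13.47 and 13.43 in induced cells. All 6 arrays had a median signal between 6.31 and 6.33. Of the 10 plasmatocyte and S2 markers measured, 8 stood at or above the 80 percentile of probe sets in both groups, while the receptor genes NimC1 and Sr-CI stood at the 54.2 and 62.4 percentiles in S2 control. Markers listed for other cells were spread widely in S2 control, from the 3.37 (lz) to the 54.8 percentile (peb) for crystal cells. They ran from the 1.99 (bt) to the 59.8 (TpnC4) for muscle and from the 10.4 (Cyp12a5) to the 93.1 (cher) for lamellocytes. Epithelial markers stood between the 52.5 (crb) and the 75.1 (sdt), and fat body markers between the 8.92 (Lsp2) and the 47.6 (Yp2). The 5′ minus 3′ signal of the Act5C control probe sets, a sign of RNA quality, was -1.26 ± 0.0869 on the control arrays and -1.79 ± 0.0778 on the induced arrays. That of the second GAPDH control series differed in the other direction, with -1.92 ± 0.0443 and -1.73 ± 0.0487, and the part of either in the results was not tested.

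Of the 10 genes, 2 rose (the alpha chains mew and if), 6 fell (ItgaPS4, ItgaPS5, Itgbn, mys, scb and Vinc), and rhea and Ilk did not pass. Among all genes tested, 14.5% rose and 16.0% fell, 30.5% in all, so a call is common in this comparison. For 8 of the 10 no control array lay within the range of the induced arrays or the reverse, which held for 45.4% of all genes. The median change of the 10 was -0.25 and that of all genes -0.01. The count of falls was lower without any 1 array, at 3 to 5, and the share of all genes called was lower too, at 23.5% to 28.0%. The count was lowest, at 3, without S2 control replicate 2 (28.0% of all genes called). There ItgaPS5, mys and scb were no longer past the threshold. All 7 integrin subunits passed, and 4 did so without that array.

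**Figure D1:**
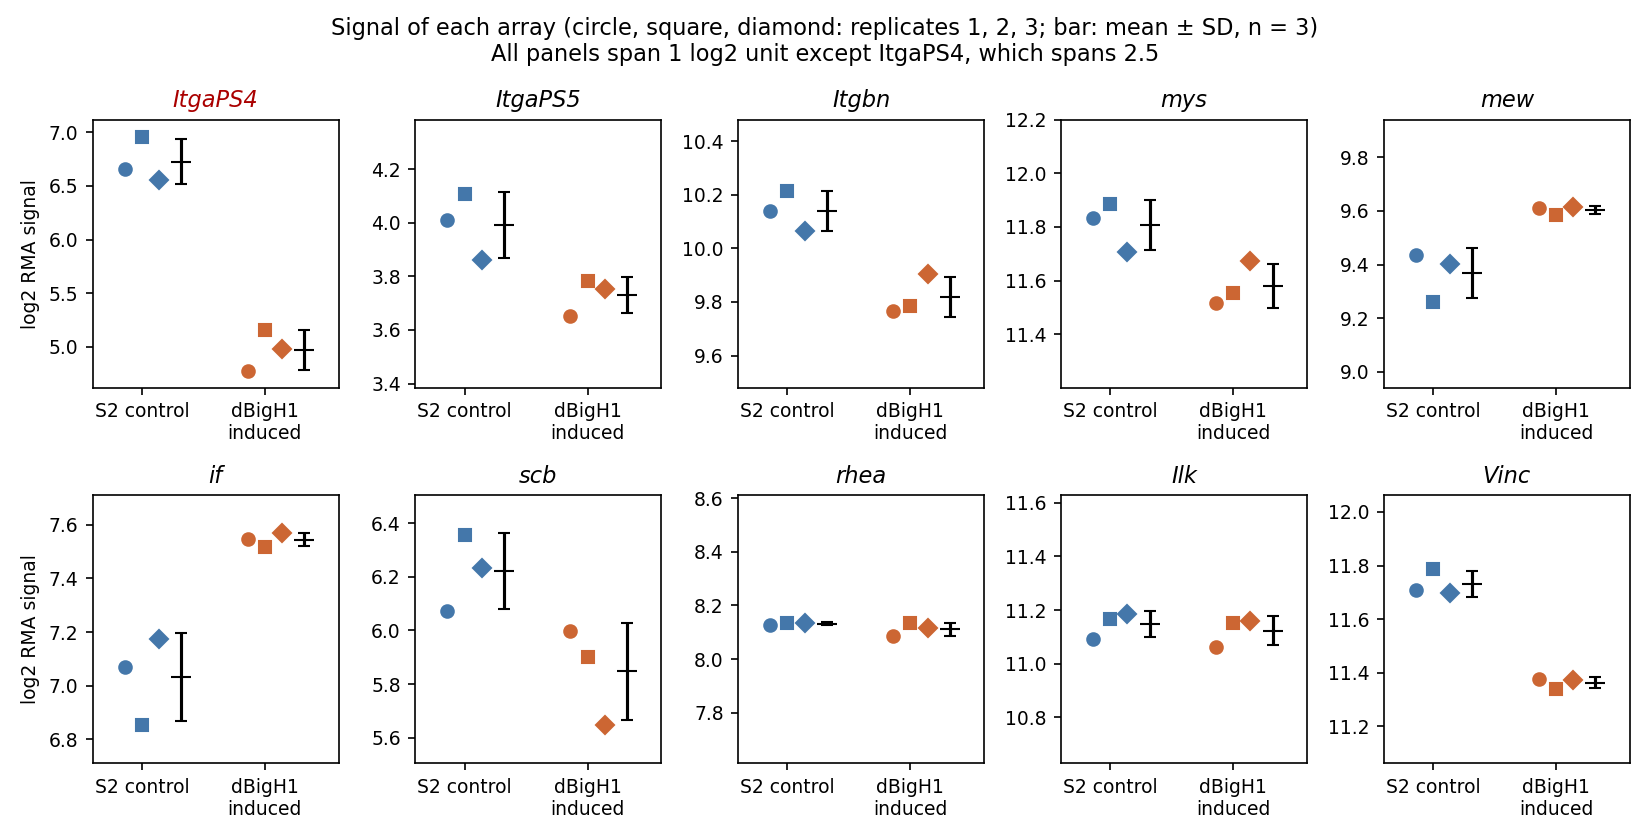
Log2 RMA signal of each of the 10 genes on every array, S2 control at the left and dBigH1 induced at the right of each panel, with the mean and SD of 3 arrays beside the points. The ItgaPS4 panel covers a wider range than the others; its control arrays lie between 6.56 and 6.96 and its induced arrays between 4.78 and 5.16, while the rhea and Ilk points of the groups overlap.

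The alpha chains went different ways. ItgaPS4, an integrin alpha chain known as a marker of lamellocytes, the flat blood cells that encapsulate parasites, read 6.66, 6.96 and 6.56 in S2 control and 4.78, 5.16 and 4.98 in induced cells. The groups lay far apart, with no array of either between them. The mean went from 6.72 ± 0.209 to 4.97 ± 0.189, so ItgaPS4 fell by 1.75 (SE 0.12, 95% interval -2.01 to -1.49, adjusted p = 4.80e-06), to 29.7% of the control signal. It was the only one of the 10 to pass with a change of at least 2-fold, as 1.47% of all genes did. Its control level stood at the 54.6 percentile of probe sets and its induced level at the 26.6 percentile, where background compresses differences.

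ItgaPS5, another alpha chain of the same insect group, was among the dimmest probe sets on the array. It read 4.01, 4.11 and 3.86 in S2 control and 3.65, 3.78 and 3.75 in induced cells, at the 8.45 and 4.94 percentiles. The groups did not overlap, but the lowest control and the highest induced array stood close together. ItgaPS5 fell by 0.26 (SE 0.07, 95% interval -0.42 to -0.10, adjusted p = 0.0204). The call was lost without S2 control replicate 1, S2 control replicate 2 or induced replicate 1 (adjusted p = 0.0556, 0.0627 and 0.0770). At such a signal it was not settled whether the RNA was present at all.

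The gene scb (scab) encodes alphaPS3, a chain used in phagocytosis and in dorsal closure. Its arrays read 6.07, 6.36 and 6.23 in S2 control and 6.00, 5.90 and 5.65 in induced cells. S2 control replicate 1 and induced replicate 1 nearly met, and induced replicate 3 was the lowest of all. It fell by 0.37 (SE 0.10, 95% interval -0.59 to -0.15, adjusted p = 0.0184), from 6.22 ± 0.142 to 5.85 ± 0.181. The call was lost without S2 control replicate 2, S2 control replicate 3 or induced replicate 3 (adjusted p = 0.0735, 0.0504 and 0.0548).

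The alpha chains if and mew rose. The gene if (inflated) encodes alphaPS2, which binds matrix proteins with an RGD motif and anchors muscle. It read 7.07, 6.85 and 7.17 in S2 control and 7.55, 7.52 and 7.57 in induced cells, where the 3 arrays were nearly level and all above every control array. It rose by 0.51 (SE 0.08, 95% interval 0.34 to 0.69, adjusted p = 9.29e-04), to 143% of the control signal, from 7.03 ± 0.164 to 7.55 ± 0.0255.

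The gene mew (multiple edematous wings) encodes alphaPS1, a laminin receptor chain, and was read by a pair of probe sets. The brighter one gave 9.44, 9.26 and 9.40 in S2 control and 9.61, 9.59 and 9.62 in induced cells. The induced arrays again lay close together and above the controls, among which replicate 2 was lowest. It rose by 0.24 (SE 0.06, 95% interval 0.11 to 0.37, adjusted p = 0.0137). The dimmer probe set of mew gave 7.45, 7.69 and 7.35 against 7.80, 7.75 and 7.88, and it rose by 0.31 (SE 0.08, adjusted p = 0.0197), in the same direction.

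Both beta chains fell. The gene mys (myospheroid) encodes betaPS, the common partner of the alpha chains. Its brighter probe set read 11.83, 11.89 and 11.71 in S2 control and 11.52, 11.55 and 11.67 in induced cells. Replicate 3 of the 2 groups differed by little, while the other arrays stood well apart. It fell by 0.23 (SE 0.07, 95% interval -0.38 to -0.08, adjusted p = 0.0282), to 85.4% of the control signal. Its other probe set, whose name carries an x and which may share sequence with other transcripts, fell by 0.22 (SE 0.07, adjusted p = 0.0306). The call of mys was lost without S2 control replicate 1, S2 control replicate 2, induced replicate 1 or induced replicate 2, with adjusted p between 0.0759 and 0.0981.

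Itgbn encodes betanu, a divergent beta chain that acts as a phagocytic receptor for apoptotic cells and bacteria. It read 10.14, 10.22 and 10.06 in S2 control and 9.77, 9.79 and 9.90 in induced cells. The groups did not overlap, and as for mys the induced array nearest to the controls was replicate 3. Itgbn fell by 0.32 (SE 0.06, 95% interval -0.46 to -0.18, adjusted p = 0.00365), from 10.14 ± 0.0757 to 9.82 ± 0.0746, and passed with any 1 array left out.

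Among the cytoplasmic linkers, Vinc alone passed. Vinculin binds talin and actin and strengthens the link under tension. Its arrays read 11.71, 11.79 and 11.70 in S2 control and 11.38, 11.34 and 11.37 in induced cells, tight within each group and clearly apart. Vinc fell by 0.37 (SE 0.05, 95% interval -0.48 to -0.25, adjusted p = 5.33e-04), to 77.5% of the control signal. The gene rhea encodes talin, which binds the beta tail and switches integrins to their active form. Its arrays lay between 8.09 and 8.13 in all 6 samples, with a log2 change of -0.02 (95% interval -0.13 to 0.09, adjusted p = 0.812). Ilk encodes the pseudokinase at the centre of a complex with PINCH and parvin. It read 11.09, 11.17 and 11.19 in S2 control and 11.06, 11.15 and 11.16 in induced cells, with a change of -0.02 (95% interval -0.15 to 0.10, adjusted p = 0.796). The groups overlapped for both genes, and the intervals hold changes of either sign.

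**Figure D2:**
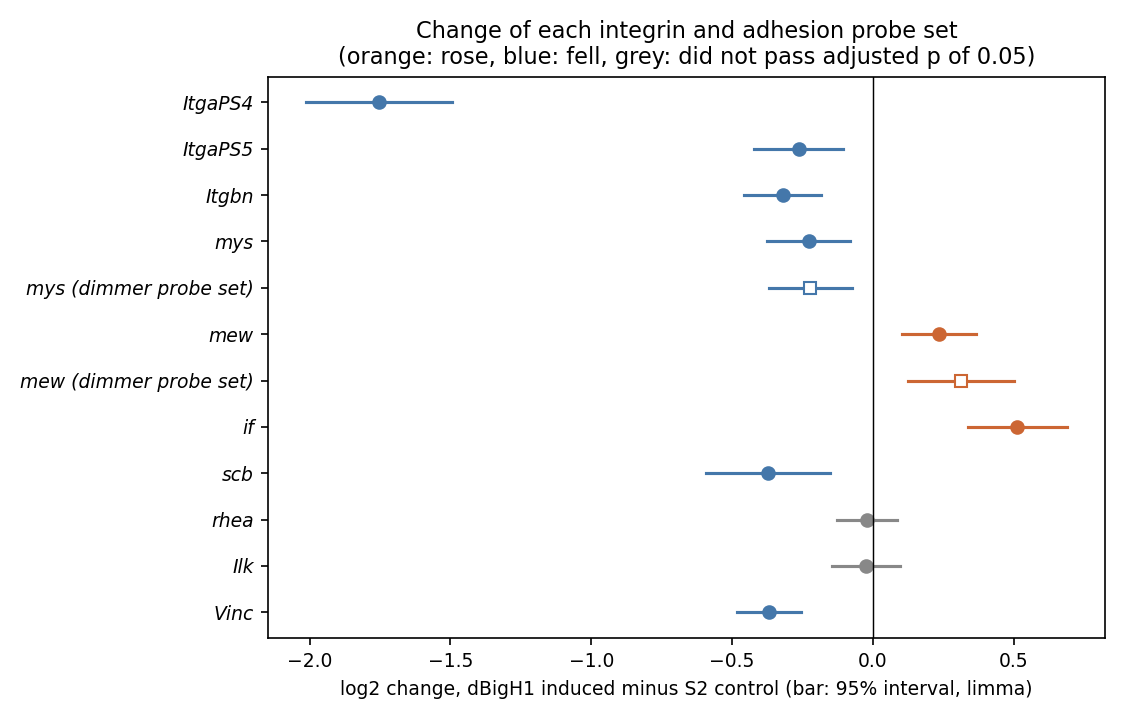
Log2 change (induced minus S2 control) of the 12 probe sets that read the 10 genes, with 95% intervals from limma on 3 arrays a group; filled circles are the probe sets that stand for their gene, open squares the dimmer ones. The pairs of probe sets of mys and of mew lie on the same side of 0, ItgaPS4 lies farthest from 0 at -1.75, and the intervals of rhea and Ilk cross 0.

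The other proteins of the adhesion site were taken from a list of 29 genes, of which 22 were measured by a probe set naming them alone. Of these, 9 fell, 2 rose and 11 did not pass (40.9% and 9.09%, against 16.0% and 14.5% of all genes). Their median change was -0.10 against -0.01 for all genes. Of the 22 genes 0 were dim (mean at or below the median of probe sets), against 4998 of all 11982, and dim genes pass less often. Without dim probe sets, 11 of the 22 fell and 2 rose. Of the 6984 genes then left, 1736 fell and 1789 rose (50.5% called). With only probe sets whose names carry no s or x, 6 adhesion complex genes fell and 2 rose, while 29.5% of all genes passed. CAP, cher and Pax then had no probe set. The Z-disc and integrin site protein gene Zasp52 fell by 2.27 (SE 0.06), from 9.44 to 7.16. CAP, whose product binds vinculin, fell by 0.89 (SE 0.09). The scaffold gene p130CAS, which acts downstream of integrins, fell by 0.62 (SE 0.06).

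The guanine exchange factor genes of the GTPase Rap1, which helps to activate integrins, differed from each other. C3G fell by 0.68 (SE 0.05) on its brighter probe set, while its other probe set showed 0.03, and the mean of the 2 fell by 0.32. PDZ-GEF rose by 0.30 (SE 0.06). The kindlin gene Fit2, whose product binds the beta tail beside talin, fell by 0.35 (SE 0.06), from 8.94 to 8.59. Ced-12, the ELMO protein of engulfment, rose by 0.30 (SE 0.05).

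Of the partners of Ilk, parvin fell by 0.28 (SE 0.05, adjusted p = 0.00267). The PINCH gene stck showed -0.12 (adjusted p = 0.0993) and the Rsu1 gene ics -0.05 (adjusted p = 0.523). The filamin gene cher fell by 0.23 (SE 0.05), the LIM protein gene Tes fell by 0.23 (SE 0.05) and the paxillin gene Pax fell by 0.17 (SE 0.05, adjusted p = 0.0314). The call of Pax was lost without any 1 array other than S2 control replicate 2, with adjusted p between 0.0793 and 0.0980. The focal adhesion kinase gene Fak showed -0.07 and the alpha-actinin gene Actn -0.02, and neither passed (adjusted p = 0.496 and 0.848). Among the genes that passed here, the fall of Zasp52 was the only one of at least 2-fold.

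Among the ligand and matrix genes outside the cell, those that passed were higher. Of 13 measured genes of integrin ligands and the basement membrane around them, 6 rose (46.2%, against 14.5% of all genes). In limma 0 fell (1 at an unadjusted p under 0.05) and 7 did not pass, with a median change of 0.11. Only 1 of the 13 was dim, against 4998 of all 11982 genes. Without dim probe sets, 6 rose and 1 fell, beside 1789 and 1736 of the 6984 genes then left (50.5% called). With only probe sets whose names carry no s or x, 4 rose and 0 fell, while 29.5% of all genes passed. LanB1 and Col4a1 then had no probe set. The peroxidasin gene Pxn, whose product crosslinks collagen IV, rose by 0.65 (SE 0.05), with 1.12 on its other probe set. The perlecan gene trol rose by 0.52 (SE 0.05), while its other probe sets ranged from 0.04 to 0.64. The collagen IV genes Col4a1 and vkg rose by 0.40 (SE 0.05) and 0.36 (SE 0.05).

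Of the laminin chains, LanB1 rose by 0.28 (SE 0.05) and LanB2 by 0.19 (SE 0.06, adjusted p = 0.0312). The call of LanB2 was lost without any 1 array other than S2 control replicate 2 (adjusted p between 0.0545 and 0.122). The alpha laminin gene LanA showed 0.05 (adjusted p = 0.547). The tiggrin gene Tig, which encodes an RGD ligand of alphaPS2, showed -0.15 (adjusted p = 0.0677) and passed as lower without S2 control replicate 2 (adjusted p = 0.0303). The remaining genes of this list that did not pass were wb (-0.09), Tsp (-0.02), Ten-m (-0.09), Ndg (-0.04) and Ppn (0.11).

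**Figure D3:**
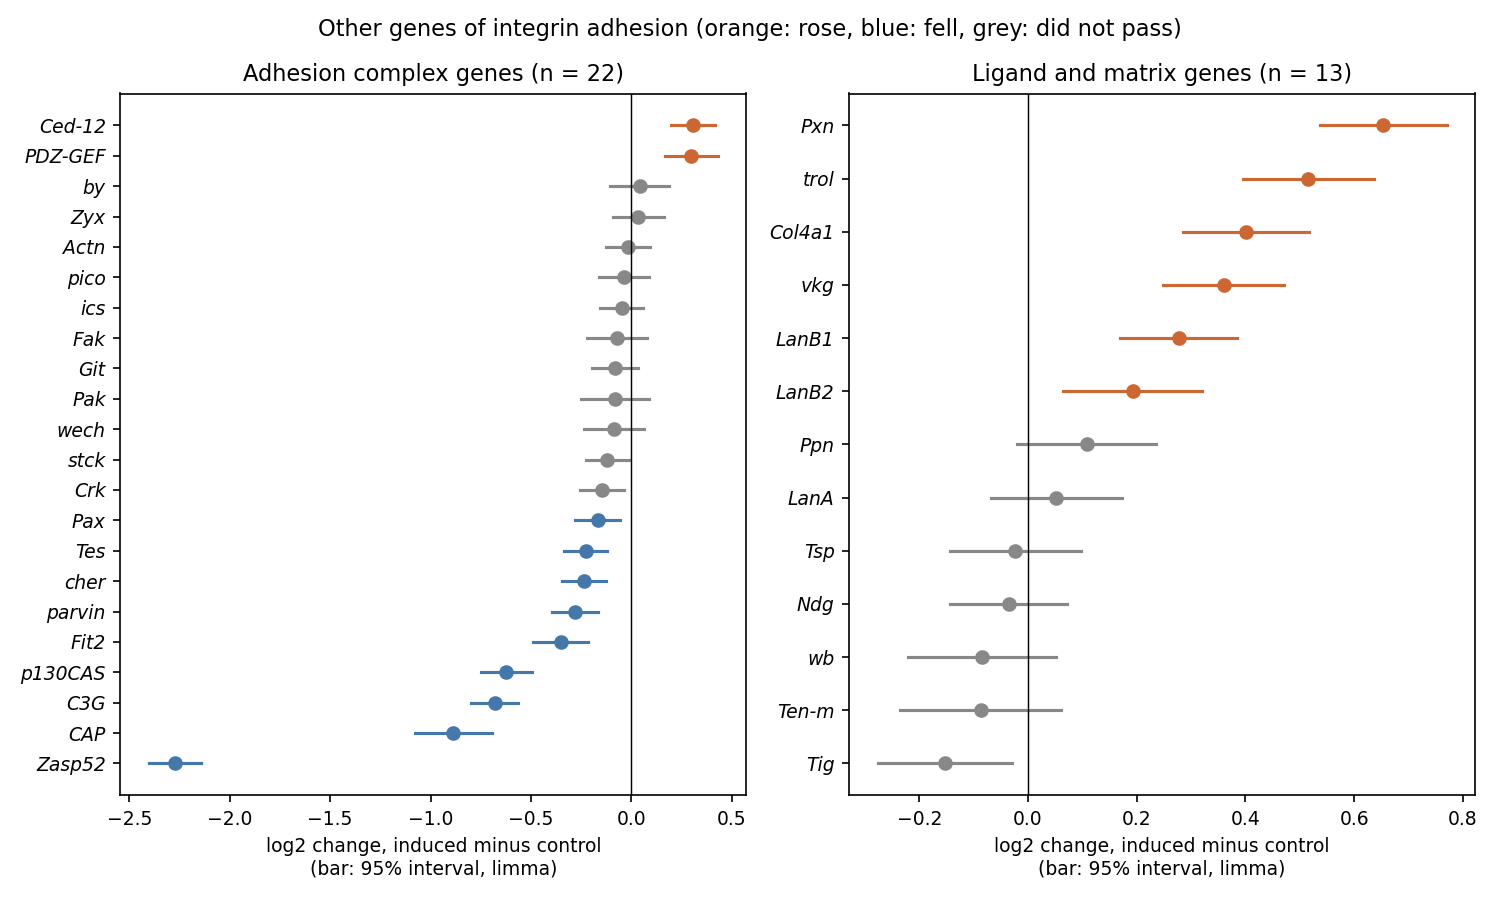
Log2 change (induced minus S2 control) with 95% intervals of the 22 adhesion complex genes at the left and the 13 ligand and matrix genes at the right, each gene by its brightest probe set, on axes of different range. At the left 9 genes lie below 0 and 2 above it among those that passed; at the right the 6 that passed all lie above 0.

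Some markers of other blood cells and tissues also passed, and the part of such cells in the results was not tested. Of the genes listed as lamellocyte markers, ItgaPS4 aside, 5 were measured: PPO3 fell by 1.19, msn fell by 0.34, cher fell by 0.23, Cyp12a5 rose by 0.91 and atilla, a defining surface marker, showed -0.12 (adjusted p = 0.143). The mean log2 signal of the 5 was 8.10 to 8.13 on the control arrays and 7.91 to 7.93 on the induced arrays. Of 7 muscle markers, TpnC4 fell by 2.94, sls fell by 0.21 (and passed neither as the mean of its probe sets nor without most single arrays) and 5 did not pass. Their means were 5.56 to 5.66 and 5.10 to 5.18, a gap that rests mostly on TpnC4. The median change of the 7 was -0.09, and 5 of the 7 were dim. Of 4 crystal cell markers 0 passed in limma, and 0 had an unadjusted p under 0.05; their means were 5.55 to 5.62 and 5.46 to 5.54.

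Of 10 plasmatocyte and S2 markers, srp rose by 0.50, Pxn by 0.65, eater by 0.24, SPARC by 0.22 and Nplp2 by 0.21. Sr-CI, a scavenger receptor gene, fell by 1.09, He fell by 0.71 and the phagocytosis receptor gene NimC1 fell by 0.35. Their mean was 10.28 to 10.40 on the control and 10.31 to 10.35 on the induced arrays. Of 4 epithelial markers, sdt rose by 0.24, with -0.16 to 0.13 on its other probe sets. Of 4 fat body markers, Yp2 rose by 0.21. The calls of eater and sdt were lost without most single arrays, and those of Nplp2 and Yp2 without induced replicate 2 and induced replicate 3 respectively.

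The position of the genes was followed through their neighbours in the order of gene starts, 2 on each side. The genes scb and ItgaPS4 stand next to each other on chromosome 2R, and the next measured gene beyond ItgaPS4, the cation channel gene Trpm, fell by 0.62 (SE 0.05, adjusted p = 2.11e-05). On the far side of scb, the nearest measured gene, Fs, showed -0.09 (adjusted p = 0.376), and an annotated antisense RNA between them was not measured by a probe set naming it alone. ItgaPS5 lies elsewhere on 2R, where Rrp4 rose by 0.37 and Dcp-1, Pi3K59F and CG30184 did not pass. Near Itgbn on 2L, tadr fell by 0.89 and CG42238 rose by 0.25.

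On the X chromosome, Upf2 next to mys rose by 0.27 and CG9609 near if rose by 0.21, while the measured neighbours of mew and Vinc did not pass. On 3L, foi fell by 0.48 and ergic53 rose by 0.16 near rhea, and near Ilk CG10508 fell by 0.58 and Eip78C fell by 0.83. In all, 28 of 36 neighbours were measured, of which 5 rose, 5 fell and 18 did not pass, so that 17.9% were called in each direction, close to the 14.5% and 16.0% of all genes. The calls of CG42238, CG9609 and ergic53 were each lost without at least 3 single arrays in turn.

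The genes whose 6 values lay nearest to those of ItgaPS4, after each gene's mean was subtracted, were nAChRalpha4, nolo, CG43085, Orcokinin and CG46339. Their root mean square difference from ItgaPS4 was 0.11 to 0.16 log2 units over the 6 arrays. The acetylcholine receptor subunit gene nAChRalpha4 read 6.98, 7.33 and 6.92 in S2 control and 5.09, 5.22 and 5.26 in induced cells. In it, as in ItgaPS4, S2 control replicate 2 was the highest array. The same array was highest in the other 4 like genes and in all 6 of the 10 genes that fell. Among the controls it was the lowest in if and on the brighter probe set of mew. The like genes were picked on these same 6 values, so a shared order of arrays follows partly from the choice. The mean of the probe sets of nAChRalpha4 fell by 0.95 and the brightest fell by 1.89. The other 4 showed changes of -1.95 to -1.58. With 6 arrays in 2 groups, this likeness rests mostly on the size of the difference between the groups.

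**Figure D4:**
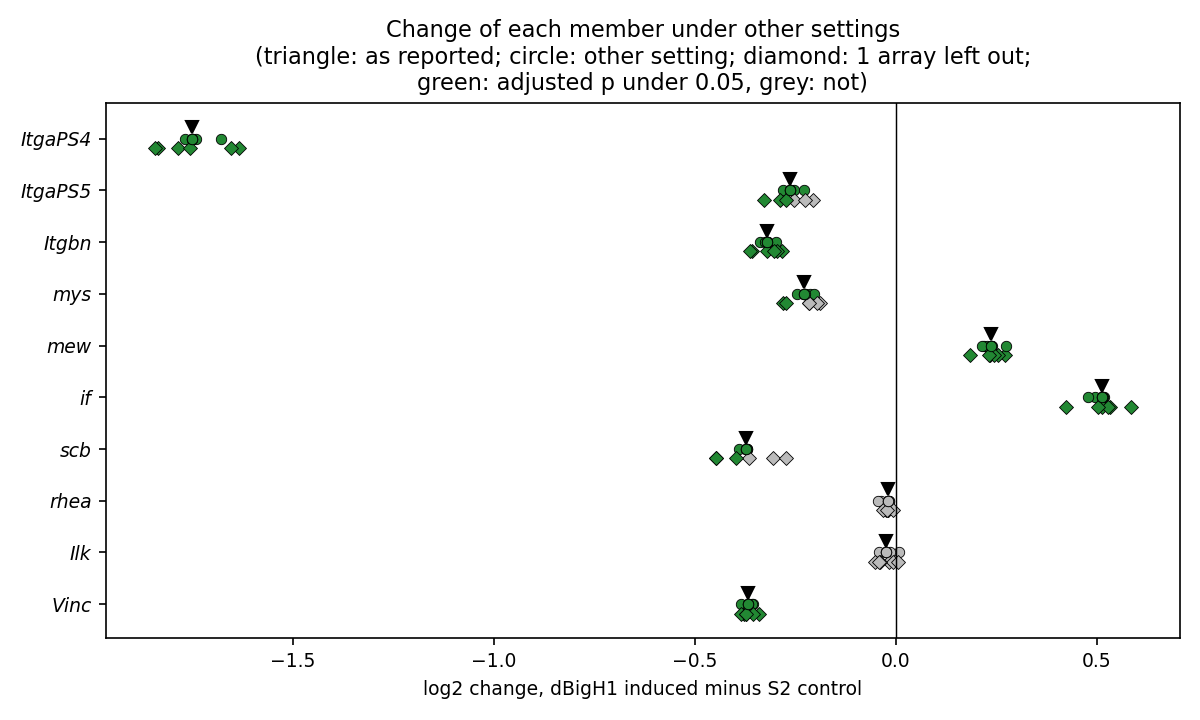
Log2 change (induced minus S2 control) of each of the 10 genes as reported (triangles), under other settings (circles) and with 1 array left out (diamonds), green where the adjusted p was under 0.05 and grey where not. ItgaPS4, Itgbn, mew, if and Vinc passed in every setting drawn, ItgaPS5, mys and scb lost the call in 3, 5 and 3 settings, and the values of Ilk lie on both sides of 0.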

How the data were processed

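Total RNA of 6 samples of S2 cells, 3 a group and 1 Affymetrix array each, was amplified from 25 ng with biotin label, per the labels' protocols. The values deposited by the authors are log2 probe set signals from RMA, per the submitters' processing notes. RMA removes background and normalises the arrays to one another, so a change common to all transcripts cannot be seen and dim probe sets are compressed. The sources used here do not give its version, its probe annotation or detection calls.

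Of 18952 probe sets, 183 platform controls were left out. The platform annotation named 1 gene for 13647 and several for 402, and 4720 have no name here. For 13544, the gene identifier gave the current symbol. RefSeq's table of Release 6 genes served for names and gene order. A gene was represented by its brightest probe set naming it alone.

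Groups were compared in limma 3.58.1 under R 4.3.3 (lmFit and eBayes, no trend, no covariate, two-sided), and p-values were adjusted by Benjamini-Hochberg over all 18769 probe sets; the procedure was tested on simulated data. An exact permutation test of 3 against 3 cannot go below p = 0.1 and was not used. The labels number the replicates but name no separate cultures, so p-values measure a spread between samples that may be technical. The number of arrays limits the precision. The members and the lists were chosen with earlier results of these data known. Named were the 10 genes, every list or marker gene that passed, neighbours, and the 5 genes nearest to ItgaPS4; list genes named without passing were chosen after their values were seen. Alternatives covered a filter on dim probe sets, centring, quantile normalisation, moderation, array weights, the replicate block, each array left out, the choice of probe sets and stricter thresholds.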

Additional observations from a re-analysis of the deposited data

How the results depend on the processing

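Of 147 values of the 10 genes under other settings, 134 kept direction and side of the threshold, 11 lost the call and 2 changed sign, both of Ilk, which was not called: 0.0075 after a further quantile normalisation and -0.052 to 0.0062 with single arrays left out. Among 54 of the other genes named, 740 of 799 values kept both, 52 lost the call, 7 gained it and 0 changed sign. Without dim probe sets (mean at or below the median), 3 of the 10 genes fell and 4 integrin subunits passed, since ItgaPS4, ItgaPS5 and scb were removed; 50.5% of all genes then passed. At an adjusted p under 0.01, 1 of the 10 rose and 3 fell, and 3 subunits passed, while 19.7% of all genes passed. With at least 2-fold change as well as an adjusted p under 0.05, only 1.47% of all genes passed. Of the 10 genes 0 then rose and 1 fell, and 1 subunit passed. Among adhesion complex genes 0 rose and 1 fell, and 0 ligand and matrix genes rose. With 1 array left out, 23.5% to 28.0% of all genes passed. In those fits 3 to 5 of the 10 genes fell, 4 to 6 subunits passed and 0 to 1 ligand and matrix genes fell. That gene, Tig, also fell (1 gene) without dim probe sets, with centring on ribosomal protein genes, with trended robust moderation and with array weights; the cause was not tested. The labels do not say whether same-numbered arrays form pairs. Deviations of same-numbered arrays from their group means correlated at 0.04, -0.10 and 0.01. S2 control replicates 2 and 3 correlated best with induced replicates 1 and 2, at 0.09 and 0.14. Such small values from 3 arrays a group cannot decide whether the arrays were paired. With the replicate number as a block, 27.3% of all genes passed. Of the 10 genes 5 then fell, mys having lost the call (adjusted p = 0.0604). The call was also lost by Pax (0.0618) and LanB2 (0.0630) of the adhesion and ligand lists, sls (0.0584), CG42238 (0.0529) and ergic53 (0.0797). LanB2 also lost it with centring on ribosomal protein genes (adjusted p = 0.0537). Dim signal limits ItgaPS5, scb and the induced level of ItgaPS4.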
